A study of Homo sapiens with 18 samples.

Results

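Keratin genes were followed in LNCaP cells, an androgen-responsive line of human prostate cancer cells that serves as a model of luminal prostate epithelium. A gene was taken as a keratin when its symbol is KRT followed by a number, with or without the letter A, B or C, and when its transcript is coding. Keratin-associated proteins, keratin pseudogenes and antisense RNAs were not taken. The rule gave 55 of the 28100 genes in the table, 29 of them type I (acidic) and 26 type II (basic). The rule uses no difference between groups, but it was set with earlier results of these data known. Counts decided which transcript stood for a gene, and no gene with such a symbol was dropped on that ground.

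The 18 libraries of polyadenylated RNA fall into 6 groups of 3, all from wild-type LNCaP cells sampled after 48 h of treatment. Control cells received RPMI with heat-inactivated serum. The M0, M1 and M2 groups received medium conditioned by THP-1 macrophages (made from a human monocytic leukaemia line) that were unpolarised, M1-polarised or M2-polarised, diluted 1:4 in that same RPMI. The M1_IKK16 group received M1 medium with IKK16, an inhibitor of the kinases that activate NF-κB, at 0.7 μmol/l, and the M1_DMSO group received M1 medium with an equal amount of the solvent. Each group thus stands for 1 cell line and for conditioned medium from 1 macrophage model. The labels number the replicates without saying whether they were separate cultures, so a p-value measures how these samples spread, and that spread may be technical.

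Keratins are the intermediate filament proteins of epithelia. A filament is built from obligate pairs of a type I and a type II keratin, and the pair in use marks the kind of epithelium. KRT8 with KRT18 is the pair of simple and luminal cells, KRT5 with KRT14 that of basal cells, KRT6 with KRT16 a pair switched on in wounded or inflamed epidermis, and KRT1 or KRT2 with KRT10 that of cornifying epidermis. In the prostate, luminal secretory cells carry KRT8 and KRT18, basal cells carry KRT5 and KRT14, and KRT19 occurs in both layers and in intermediate cells. Type I genes lie in a cluster on chromosome 17 and type II genes on chromosome 12, with KRT18 as the exception, a type I gene next to KRT8. Of the 55 genes, 28 lie on chromosome 17 and 27 on chromosome 12.

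A library held 24202741.5 to 33814818 gene counts, of which 0.0654 to 0.0906% fell on keratins. Of the 55 keratins, 14 passed the filter on low counts and were tested, 22 had some counts and were not tested, and 19 had no count in any of the 18 libraries. Levels are in CPM, counts scaled to the library's size with TMM. A count of 0 allows up to 3 counts (0.0887 to 0.124 CPM). That limit covers counting error only, since reads amplified by PCR are not independent molecules. All 5 simple and luminal keratins (KRT7, KRT8, KRT18, KRT19, KRT20) were tested. So were 1 of 4 basal keratins (KRT14), 3 of 4 activation keratins (KRT6A, KRT6B, KRT6C), 3 of 15 keratins of stratified epithelia (KRT2, KRT10, KRT80), 1 of 9 root sheath keratins (KRT75) and 1 of 17 hair keratins (KRT86).

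M1 medium raised some keratins and lowered others. In M1 against control, 11 keratins were higher (KRT2, KRT6A, KRT6B, KRT6C, KRT7, KRT8, KRT10, KRT20, KRT75, KRT80 and KRT86), 2 were lower (KRT14 and KRT19), and KRT18 did not pass the threshold, an edgeR adjusted p under 0.05 over all 17073 genes tested. Of all genes tested, 32.7% were higher and 32.1% lower in the same comparison. A keratin near 0 outside the M1 groups could pass the filter only by being high there, so the count of tested members is no measure of the family. Of the 7 keratins with at least 10 counts in every control library, 4 were higher, 2 lower and 1 not called. That choice does not depend on M1 but does use the control values of the comparison. The shares among all genes chosen that way were not taken, so this is no measure of the family either. In bulk RNA, fewer cells that carry a transcript and less of it per cell cannot be told apart.

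**Figure D1:**
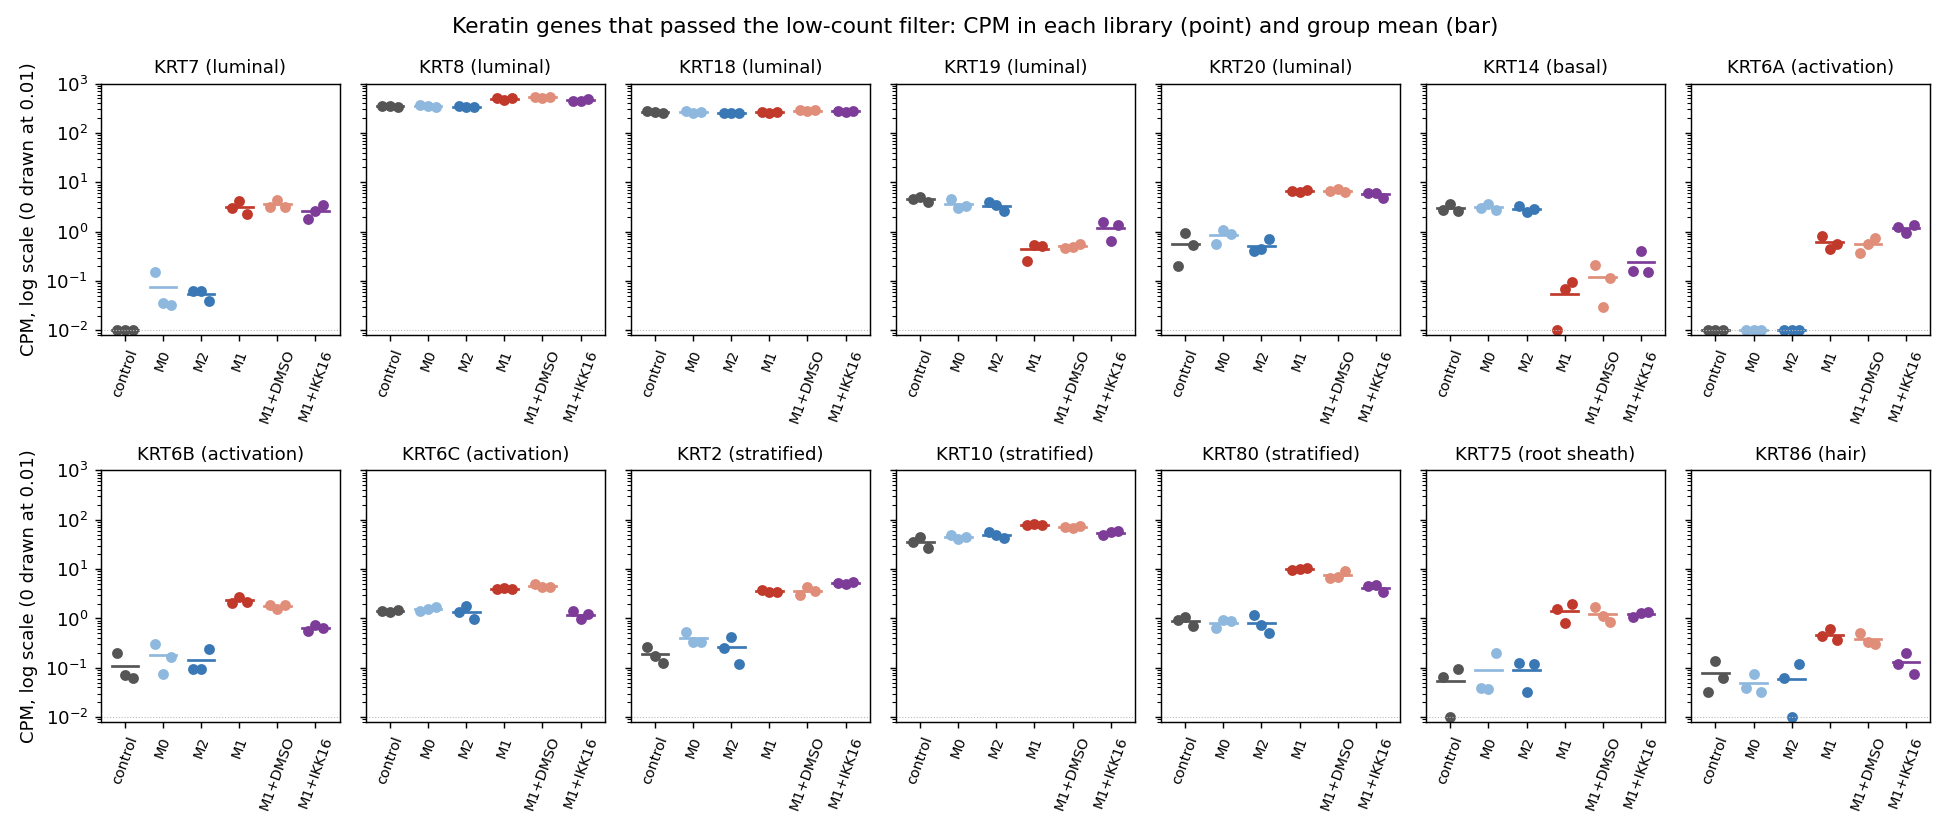
CPM (log scale, 0 drawn at 0.01) of the 14 tested keratins in each of the 18 libraries, by group, with KRT8 over its long span. Points are libraries and bars are group means; KRT18 is level across the groups, KRT14 and KRT19 are low in the 3 groups that received M1 medium, and KRT7 and KRT6A are at 0 in control.

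KRT8, the type II partner of the luminal pair, needed a choice of transcript before its level could be read. The transcript with the highest total (NM_001256293, chr12:52897281-52949824, minus strand, hg38) starts within KRT18 (chr12:52948871-52952900 for NM_199187, plus strand), so its span takes in the first part of that gene. Counts followed the genomic span of a transcript, introns included: of 4517 pairs of transcripts with 1 span and different spliced lengths, 3662 (81.1%) held identical counts in all libraries. In every library the long KRT8 span held more than the short one (NM_002273, chr12:52897194-52906618), by 56.3 to 59.3% of that library's KRT18 count. This excess made up 31.0 to 44.1% of the long-span count. KRT8 is therefore given below over its short span, which ends before KRT18 begins. That choice was made after seeing the data.

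Over the short span, KRT8 was at 197.3, 200.5 and 194.2 CPM in the control libraries. In M1 it stood at 345.7, 324.4 and 346.9 CPM. Every M1 library was above every control library, and KRT8 rose 1.72-fold (log2 fold change 0.78 ± 0.04 SE, edgeR adjusted p = 1.65e-13). Over the long span the same comparison gave 0.49 ± 0.04 (350.6 to 492.6 CPM on average, edgeR adjusted p = 1.06e-09).

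KRT18, the type I partner, was not called. It was at 272.8, 269.4 and 258.3 CPM in control and at 269.7, 252.0 and 267.9 CPM in M1. The groups overlap, and the log2 fold change was -0.02 ± 0.05 (edgeR adjusted p = 0.72). Per kilobase of spliced transcript, KRT18 averaged 187.9 CPM and KRT8 104.9 CPM in control, against 185.3 and 180.1 CPM in M1. Counts followed whole spans (4030 bases for KRT18, 9425 for KRT8), so the distance between the partners depends on the length used. The change of KRT8 relative to KRT18 between groups does not.

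The ratio of KRT8 to KRT18 counts within a library shows this change without any scaling between libraries. It was 0.740 ± 0.015 (SD, n = 3) in control, 0.762 ± 0.029 in M0 and 0.762 ± 0.019 in M2. In M1 it was 1.29 ± 0.0065, in M1_DMSO 1.25 ± 0.0042 and in M1_IKK16 1.10 ± 0.014. The lowest M1 library (1.28) lay above the highest of the control, M0 and M2 libraries (0.796), and the M1_IKK16 libraries (1.09 to 1.11) lay between the 2 sets. M1 and control did not overlap (exact two-sided permutation p = 0.1, the smallest that 3 against 3 libraries allow), and neither did M1_IKK16 and M1_DMSO (exact permutation p = 0.1). Adjusted over the 48 permutation tests of these sums and ratios, both come to 0.171.

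**Figure D2:**
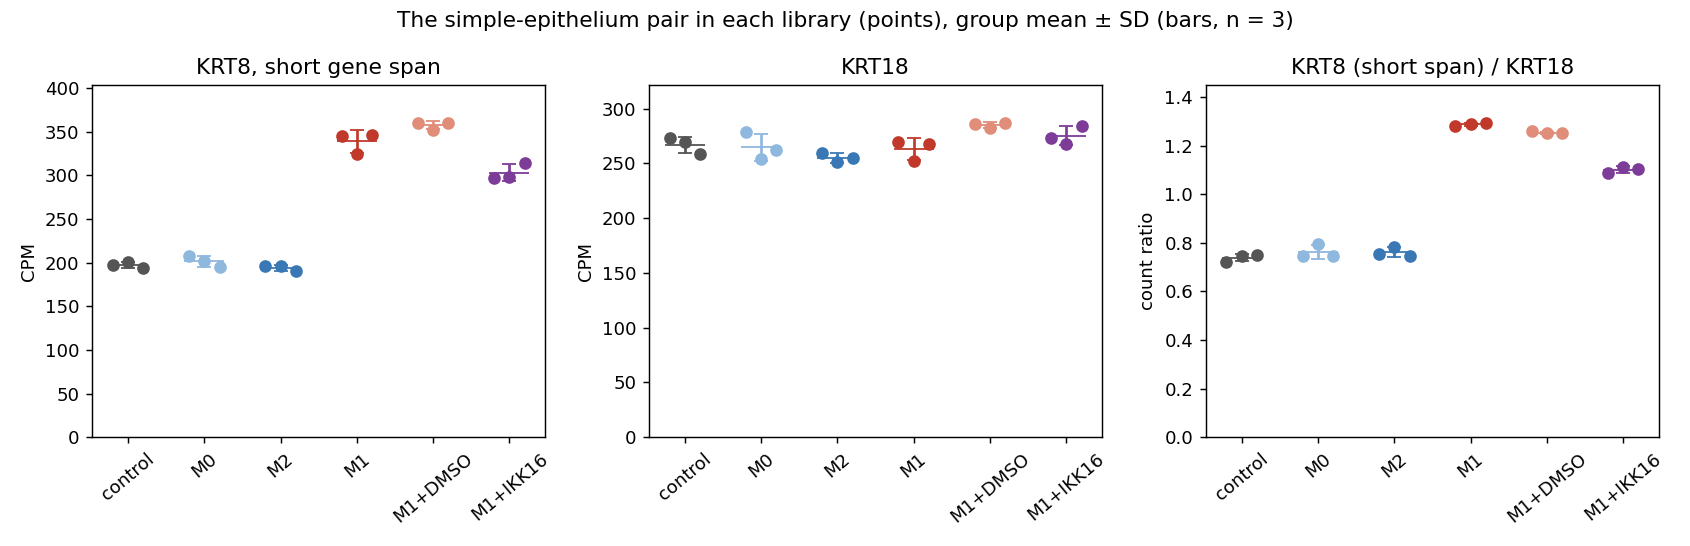
CPM of KRT8 over its short span (left), CPM of KRT18 (middle) and the ratio of their counts (right) in each library, with group mean ± SD over 3 libraries. KRT8 is higher in the 3 groups with M1 medium while KRT18 stays between 250.9 and 287.2 CPM, so the ratio moves from 0.740 in control to 1.29 in M1 and 1.10 in M1_IKK16.

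KRT19, the smallest keratin and one without the usual tail domain, went the other way. It was at 4.51, 5.16 and 3.94 CPM in control and at 0.252, 0.544 and 0.522 CPM in M1. No M1 library came near the control range, and KRT19 fell by 3.36 ± 0.28 on the log2 scale (edgeR adjusted p = 2.23e-10). KRT20, a keratin of intestinal and urothelial surface cells, was at 0.198, 0.948 and 0.527 CPM in control and at 6.65, 6.43 and 7.02 CPM in M1. It rose 12.1-fold (log2 fold change 3.60 ± 0.24, edgeR adjusted p = 6.10e-12), although the control libraries themselves spread widely. KRT7, a type II keratin of ductal and glandular epithelia, had no count in any control library and was at 3.03, 4.18 and 2.28 CPM in M1, which is at least 32.0-fold higher when control is set to 3 counts per library (edgeR adjusted p = 1.55e-10). The 5 simple and luminal keratins therefore held 3 that rose, 1 that fell and 1 that was not called.

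Part of the KRT7 and KRT10 counts may come from RNA on the other strand, since counts followed spans. Use of strand in the counting is not given in the sources used here. The long KRT8 span (minus strand) exceeded the short one by 56.3 to 59.3% of the KRT18 count (plus strand) in every library. A KRT8 span of 29173 bases that ends before KRT18 held 136430 counts in total, against 136003 for the short span. Counts in the long span thus followed a gene on the other strand. KRT7-AS lies wholly within KRT7 and held 0 counts in control and 103.5 in the 3 M1 libraries together. KRT10-AS1 overlaps KRT10 and held 2998 counts in control and 4388 in M1. KRT20 lies wholly within the noncoding RNA gene LOC105371777, and KRT86 overlaps KRT86-AS2. Neither of these RNAs has a count here. The share of overlapping RNAs in the KRT7, KRT10, KRT20 and KRT86 values was not tested.

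KRT14 was the one basal keratin with a measurable level. It was at 2.73, 3.58 and 2.58 CPM in control, and at 0, 0.068 and 0.0979 CPM in M1. The M1 libraries were all below the lowest control library by a wide margin, and KRT14 fell by 5.65 ± 0.42 on the log2 scale (edgeR adjusted p = 3.15e-11), the steepest fall among the 14 tested keratins. Its type II partner KRT5 had no count in any of the 18 libraries. KRT15, another basal keratin, had 0 counts in the control libraries together and 18.5 in the M1 libraries. KRT17, a basal and stress keratin, had 0 in both and at most 7 counts in any library. Neither KRT15 nor KRT17 passed the filter, so neither was tested. Per kilobase, the summed level of the 4 basal keratins was 1.78 ± 0.33 CPM in control and 0.0729 ± 0.027 CPM in M1 (SD, n = 3). In control all of it was KRT14, so its fall is that of KRT14. In M1, KRT14 averaged 0.0333 and KRT15 0.0396 CPM per kilobase.

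The KRT6 genes encode 3 nearly identical type II keratins that are low in resting epidermis and high in wounded or inflamed epidermis. Their transcripts are alike enough (91.8% identity between KRT6A and KRT6B, 95.7% between KRT6A and KRT6C, 93.2% between KRT6B and KRT6C) that the split of reads between them depends on how reads with several matches were counted, which is not given in the sources used here. Of all 150-base stretches, the read length on the labels, 9.25% of those in KRT6A, 12.8% of those in KRT6B and 16.5% of those in KRT6C also occur unchanged in another copy. The coding sequences have 1692 bases each and differ among the copies at 51 of them. The stretch of 100 coding bases with the most such positions (10) is shown because a read across it tells the copies apart. The sequences are those of the GENCODE transcripts on GRCh38, minus strand, at chr12:52491532-52491631 for KRT6A, chr12:52450416-52450515 for KRT6B and chr12:52472076-52472175 for KRT6C, and capitals mark the positions where the copies are not all the same.
KRT6A: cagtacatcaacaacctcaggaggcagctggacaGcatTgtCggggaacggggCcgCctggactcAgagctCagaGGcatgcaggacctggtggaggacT
KRT6B: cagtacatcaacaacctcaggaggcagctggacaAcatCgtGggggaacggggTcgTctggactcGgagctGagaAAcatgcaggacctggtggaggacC
KRT6C: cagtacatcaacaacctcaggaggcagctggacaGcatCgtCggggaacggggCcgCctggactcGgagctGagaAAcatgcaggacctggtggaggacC

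KRT6C was the most abundant copy in untreated LNCaP cells, at 1.42, 1.33 and 1.49 CPM in control. In M1 it stood at 3.91, 4.08 and 3.98 CPM, above every control library, and rose 2.81-fold (log2 fold change 1.49 ± 0.17, edgeR adjusted p = 3.89e-08). KRT6B was at 0.198, 0.0702 and 0.0621 CPM in control and at 2.08, 2.75 and 2.15 CPM in M1. That is a 20.4-fold rise from a level near the counting limit (log2 fold change 4.35 ± 0.36, edgeR adjusted p = 2.17e-10). KRT6A had no count in the control, M0 or M2 libraries and was at 0.820, 0.442 and 0.555 CPM in M1, at least 6.13-fold higher than 3 counts per control library (edgeR adjusted p = 2.36e-06). KRT16, the type I partner of KRT6, was not tested: it had 0 counts in control and 8.5 in the 3 M1 libraries together.

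The mix of the copies changed along with their sum. Summed KRT6 counts, taken before rounding, were at 1.39 to 1.60 CPM in control and 6.66 to 7.24 CPM in M1, without overlap. KRT6C made up 87.6 to 96.9% of KRT6 counts in the control libraries and 56.1 to 59.6% in M1. KRT6B made up 3.06 to 12.4% and 30.5 to 37.8%. KRT6A went from 0% to between 6.10 and 11.9%. In each case the control and M1 libraries were apart.

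**Figure D3:**
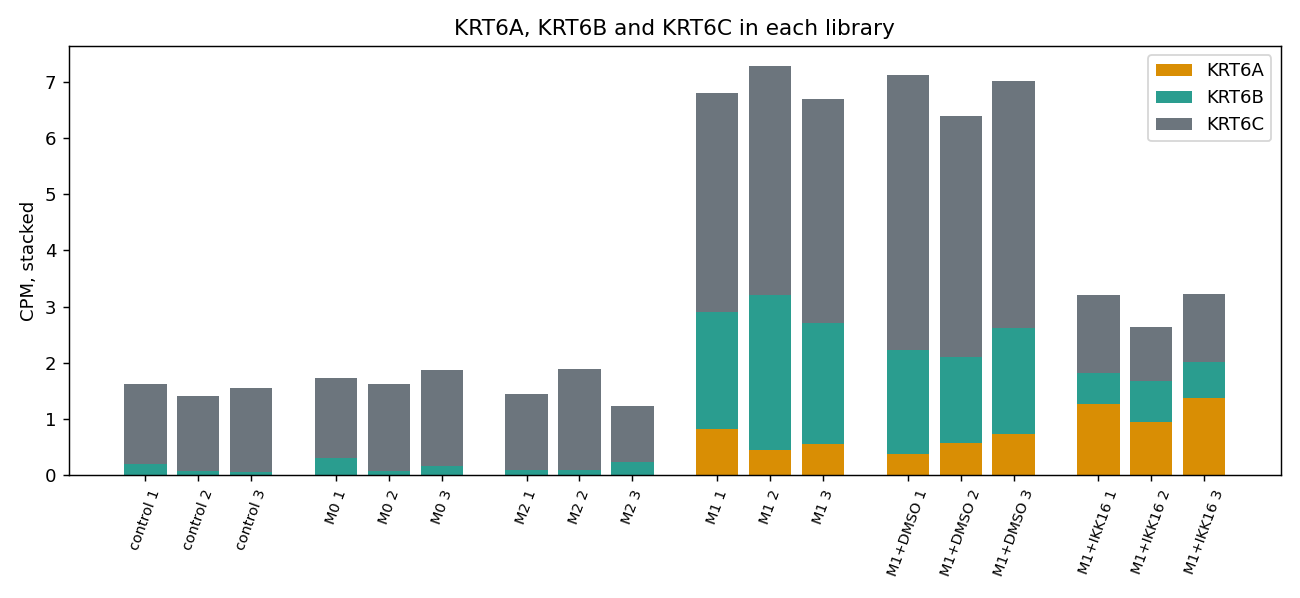
CPM of KRT6A, KRT6B and KRT6C stacked for each of the 18 libraries. The stacks are low and nearly all KRT6C in control, M0 and M2, reach 6.37 to 7.24 CPM in M1 and M1_DMSO, and shrink to 2.60 to 3.17 CPM in M1_IKK16 (sums before rounding; the bars use rounded counts), of which KRT6A makes up 35.2 to 42.5%.

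Among the keratins of stratified epithelia, KRT10 is the type I partner of KRT1 and KRT2 in cornifying cells and was the third most abundant keratin here. It was at 34.8, 44.5 and 27.2 CPM in control and at 80.1, 81.3 and 78.9 CPM in M1. The control libraries varied more among themselves than the M1 libraries did, and the groups did not overlap. KRT10 rose 2.26-fold (log2 fold change 1.18 ± 0.12, edgeR adjusted p = 7.41e-09). KRT80, a type II keratin found near desmosomes and then at the cell margin, rose from 0.922, 1.05 and 0.714 CPM to 9.68, 10.3 and 10.3 CPM. This was an 11.3-fold rise (log2 fold change 3.50 ± 0.19), and its edgeR adjusted p of 1.08e-13 was the lowest of the 14. KRT2, the type II keratin of the outermost living epidermal layers, was at 0.263, 0.176 and 0.124 CPM in control and at 3.81, 3.40 and 3.43 CPM in M1. It rose 18.6-fold (log2 fold change 4.22 ± 0.27, edgeR adjusted p = 2.77e-12). KRT1, the main partner of KRT10 in epidermis, had no count in any library, and KRT77, KRT3, KRT9, KRT76 and KRT79 had none either.

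KRT75, a type II keratin of the companion layer around hair shafts, was at 0.0658, 0 and 0.0931 CPM in control and at 1.54, 0.816 and 1.96 CPM in M1. The 3 M1 libraries differed among themselves by more than 2-fold but were all far above control (log2 fold change 4.61 ± 0.56, edgeR adjusted p = 1.44e-07). KRT86, a type II hair keratin, averaged 0.0785 CPM in control and 0.471 CPM in M1 and never reached 1 CPM (log2 fold change 2.54 ± 0.54, edgeR adjusted p = 2.46e-04). Its reads may be shared with KRT81 and KRT83, whose transcripts are 88.4 and 86.8% identical to it, and KRT81 lies within its span.

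The 22 keratins with counts that were not tested reached at most 8 counts in a library. The largest count was 8 for KRT15, 7.5 for KRT36 and KRT83, 7 for KRT17 and KRT24, 6.5 for KRT73, 6 for KRT16 and 5 for KRT12. It was 3 for KRT23, KRT32, KRT40 and KRT78, 2 for KRT37 and KRT39, 1.5 for KRT35 and KRT81, 1 for KRT4, KRT13, KRT33A, KRT72 and KRT222, and 0.5 for KRT34. Their counts summed to between 5.5 and 9 in a control library and between 19.5 and 41 in an M1 library. The hair keratin KRT36 had 0 counts in control and 12 in M1, the hair keratin KRT83 1 and 12, the corneal keratin KRT12 0 and 9.5, and KRT24 13 and 1.5, each summed over 3 libraries. The other keratins with no count in any library were KRT25, KRT26, KRT27, KRT28, KRT71 and KRT74 of the root sheath, and KRT31, KRT33B, KRT38, KRT82, KRT84 and KRT85 of the hair.

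Few keratins, and a small share of all genes tested, passed the threshold with M0 or M2 medium. In M0 against control, edgeR called 0 keratins in either direction, where 7.06% of all genes tested were higher and 4.51% lower. DESeq2 also called 0. At an unadjusted p under 0.05, 3 were higher (KRT2, KRT7 and KRT10) and 0 lower. KRT10 stood at 48.5, 41.7 and 45.4 CPM in M0, 1 library of which lies inside the control range, with a log2 fold change of 0.35 ± 0.12 (edgeR adjusted p = 0.0605). This depended on single libraries: KRT10 was called without control replicate 2 (which also brought in KRT20) or without M0 replicate 2.

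In M2 against control, KRT10 was the 1 keratin called higher, beside 5.34% of all genes tested, and 0 were lower by edgeR or DESeq2, beside 3.37%. At an unadjusted p under 0.05, KRT19 was also lower. KRT10 stood at 57.2, 49.8 and 42.2 CPM in M2, overlapping control, and rose 1.41-fold (log2 fold change 0.49 ± 0.12, edgeR adjusted p = 0.0155). The call was lost, leaving 0, without control replicate 1, control replicate 3, M2 replicate 1 or M2 replicate 2, and when the 2 groups were fitted alone. KRT14, at 2.77 to 3.64 CPM in M0 and 2.50 to 3.25 CPM in M2, lay within or around its control range.

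The M1 pattern was also seen against the other conditioned media, which share the M1 libraries with the comparison above. In M1 against M0, 11 keratins were higher (33.4% of all genes) and 2 lower (33.6%), and in M1 against M2, 11 were higher (33.8%) and 2 lower (33.7%), with KRT18 the 1 not called in both. KRT80 had log2 fold changes of 3.61 ± 0.20 against M0 and 3.59 ± 0.20 against M2, and KRT14 of -5.73 ± 0.42 and -5.62 ± 0.42. KRT10 had the smaller differences of 0.83 ± 0.12 and 0.69 ± 0.12.

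With the solvent alone no keratin passed the threshold. In M1_DMSO against M1, edgeR and DESeq2 called 0 keratins, where edgeR called 2.56% of all genes higher and 1.97% lower. At an unadjusted p under 0.05, KRT8 and KRT18 were higher and KRT80 lower. KRT80 was at 6.50, 7.04 and 9.02 CPM in M1_DMSO, below all 3 M1 libraries, with a log2 fold change of -0.42 ± 0.14 (edgeR adjusted p = 0.0868). Fitting the 2 groups alone called KRT10 and KRT80 lower, so M1_DMSO and not M1 is the reference for IKK16.

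IKK16 lowered some of the keratins that M1 medium had raised and raised a few, and others did not pass the threshold. In M1_IKK16 against M1_DMSO, which share no library with M1 or control, 6 keratins were lower (KRT6B, KRT6C, KRT8, KRT10, KRT80 and KRT86) and 3 higher (KRT2, KRT6A and KRT19), with 5 not called. Of all genes tested, 13.9% were higher and 13.2% lower. Of the 11 keratins higher in M1 against control, 6 were thus lower with IKK16, 2 were higher still and 3 (KRT7, KRT20 and KRT75) were not called. Of the 2 that M1 lowered, KRT19 was higher with IKK16 and KRT14 was not called. The same splits over all genes that M1 raised or lowered were not counted, so these are not read as particular to keratins.

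KRT6C showed the clearest fall. It was at 4.91, 4.29 and 4.41 CPM with DMSO and at 1.39, 0.976 and 1.21 CPM with IKK16. These values do not overlap, and the log2 fold change was -1.92 ± 0.18 (edgeR adjusted p = 1.64e-08). Of the IKK16 libraries, 1 lay among the control libraries and 2 below them (log2 fold change against control -0.24 ± 0.21, edgeR adjusted p = 0.336). KRT6B was at 1.85, 1.53 and 1.88 CPM with DMSO and at 0.554, 0.732 and 0.645 CPM with IKK16. It fell by 1.43 ± 0.28 (edgeR adjusted p = 4.99e-04) but stayed above control, by 2.50 ± 0.46 (edgeR adjusted p = 6.90e-05).

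KRT6A, the third copy, did not fall. It was at 0.378, 0.570 and 0.729 CPM with DMSO and at 1.27, 0.935 and 1.37 CPM with IKK16, the highest values in the series, and rose by 1.08 ± 0.32 on the log2 scale (edgeR adjusted p = 0.0202). The change in the mix was large. KRT6A went from 5.31 to 10.2% of KRT6 counts with DMSO to between 35.2 and 42.5% with IKK16, and KRT6C from 63.2 to 68.7% down to 36.7 to 43.1%, both without overlap (exact permutation p = 0.1 each, 0.171 adjusted over the 48 tests). KRT6B made up 25.5 ± 1.51% with DMSO and 21.8 ± 5.60% with IKK16, with overlap (exact permutation p = 0.4). The KRT6A call was kept in 2 of the 6 fits that leave out 1 library of these groups and was lost without M1_DMSO replicates 1 or 2 or M1_IKK16 replicates 1 or 3 (edgeR adjusted p 0.062 to 0.0836), and DESeq2 gave an adjusted p of 0.0756.

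KRT80 was at 6.50, 7.04 and 9.02 CPM with DMSO and at 4.48, 4.72 and 3.42 CPM with IKK16. It fell by 0.84 ± 0.16 (edgeR adjusted p = 3.51e-04) and stayed above control by 2.23 ± 0.22. KRT8 over its short span was at 360.5, 352.7 and 360.0 CPM with DMSO and at 297.2, 298.4 and 314.1 CPM with IKK16. The fall was small and the libraries were apart (log2 fold change -0.24 ± 0.04, edgeR adjusted p = 2.43e-04), while KRT18, at 286.5, 282.0 and 287.2 CPM against 273.7, 268.1 and 284.6 CPM, overlapped and was not called (-0.05 ± 0.05, edgeR adjusted p = 0.456). KRT10 was at 72.5, 67.5 and 73.4 CPM with DMSO and at 48.9, 56.9 and 57.9 CPM with IKK16. It fell by 0.38 ± 0.12 (edgeR adjusted p = 0.018), and KRT86 averaged 0.380 and 0.133 CPM (log2 fold change -1.48 ± 0.53, edgeR adjusted p = 0.043). The KRT10 call was lost without M1_DMSO replicate 1 or 3 or M1_IKK16 replicate 1 (edgeR adjusted p 0.0585 to 0.105). The KRT86 call was kept in 1 of 6 fits with a library left out and in 2 of the 7 other alternatives.

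KRT2 was at 3.02, 4.26 and 3.65 CPM with DMSO and at 5.35, 5.00 and 5.58 CPM with IKK16, a rise of 0.53 ± 0.16 (edgeR adjusted p = 0.0171). KRT19 was at 0.462, 0.480 and 0.576 CPM with DMSO and at 1.54, 0.651 and 1.37 CPM with IKK16. It rose by 1.23 ± 0.35 (edgeR adjusted p = 0.0104), with 1 IKK16 library only just above the DMSO libraries, and was still below control by a log2 fold change of -1.92 ± 0.24. The KRT2 call was lost without M1_DMSO replicate 1 (adjusted p = 0.0876 by edgeR) or M1_IKK16 replicate 3 (0.0551), and the KRT19 call without M1_IKK16 replicate 1 (0.0757).

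The remaining keratins did not pass the threshold between IKK16 and DMSO. KRT7 was at 3.10, 4.47 and 3.22 CPM with DMSO and at 1.78, 2.60 and 3.49 CPM with IKK16, with overlap (log2 fold change -0.47 ± 0.24, edgeR adjusted p = 0.162). Without M1_IKK16 replicate 3, KRT7 was called lower (-0.73, edgeR adjusted p = 0.0497). KRT20 was at 6.63, 7.43 and 6.26 CPM and at 6.22, 6.18 and 4.90 CPM, and KRT75 at 1.72, 1.11 and 0.844 CPM and at 1.07, 1.30 and 1.37 CPM. KRT14 stayed near the counting limit, at 0.210, 0.030 and 0.115 CPM with DMSO and at 0.158, 0.407 and 0.152 CPM with IKK16 (log2 fold change 1.09 ± 0.65, edgeR adjusted p = 0.228).

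Against control, cells with M1 medium and IKK16 still had 9 keratins higher (26.8% of all genes) and 2 lower (25.6%), with KRT6C, KRT18 and KRT86 not called. KRT14 was lower by a log2 fold change of -3.62 ± 0.33, and KRT7 was at least 26.6-fold higher than 3 counts per control library.

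**Figure D4:**
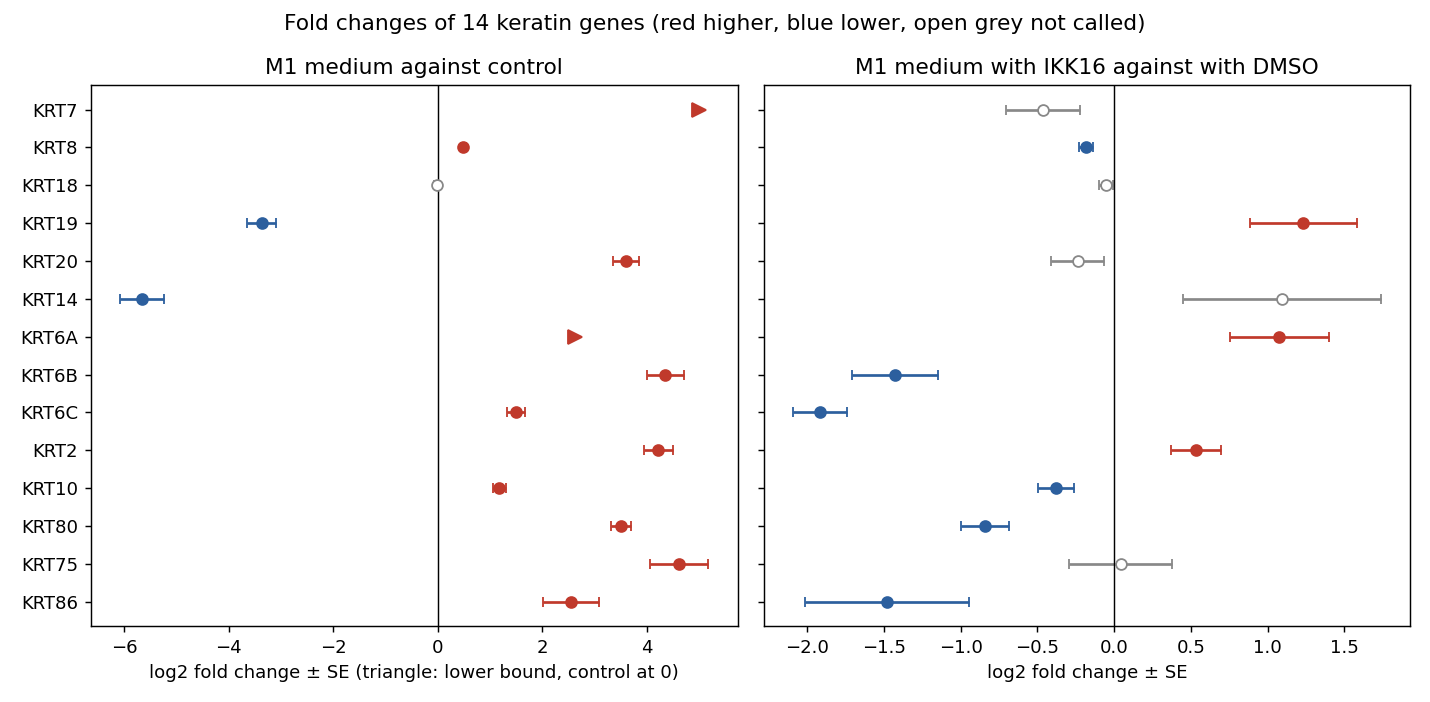
Log2 fold changes ± SE of the 14 tested keratins in M1 against control (left) and M1_IKK16 against M1_DMSO (right), with KRT8 over its long span; the horizontal scales differ. Red points were called higher, blue points lower and open grey points were not called; triangles are lower bounds for KRT7 and KRT6A, which had no count in control.

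Added up per kilobase of transcript, with KRT8 over its short span, the keratin level was 316 ± 11 CPM in control and 418 ± 12.7 CPM in M1 (n = 3), a ratio of 1.32. With the long KRT8 span, as the rule takes it, the sums were 411 ± 14.1 and 518 ± 17.3 CPM, a ratio of 1.26. KRT8, KRT18 and KRT19 made up 93.7 ± 1.24% of the sum in control and 87.6 ± 0.587% in M1 (short span), or 95.2 and 90.0% (long span). The keratins other than KRT8 and KRT18 summed to 23.2 ± 5.0 CPM per kilobase in control, 27.6 in M0, 29.03 in M2, 52.1 ± 0.94 in M1, 47.5 in M1_DMSO and 37.1 in M1_IKK16. Type I over type II keratins was 1.98 ± 0.06 in control, 1.20 ± 0.0068 in M1, 1.20 in M1_DMSO and 1.34 in M1_IKK16 (short span); with the long span the values were 1.05, 0.783, 0.775 and 0.830. The libraries of M1 and control did not overlap in any of these, and neither did those of M1_IKK16 and M1_DMSO.

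Promoter sequences were at hand from RefSeq (GRCh38.p14) for 34 of the 55 keratins and 5 of the 14 tested, KRT2, KRT8, KRT10, KRT20 and KRT75. The 250 bases before each start were searched on both strands for a TATA box (TATAAA, in 11.1% of 27305 promoters of that length), a CCAAT box (CCAAT, 33%), AP-1 (TGANTCA, 6.6%), STAT (TTCNNNGAA, 6.78%) and the κB consensus (5.05%). None of the 5 held an AP-1, STAT or κB match, which says only that these letters are not in these windows. Variants of the TATA box other than TATAAA, such as the tatataag near the start of KRT2, were not searched for. The KRT8 window (chr12:52926470-52926719) precedes a start that belongs to neither of the KRT8 spans measured above. The 2 with a match are shown, KRT10 because it was raised by M1 medium and lowered by IKK16, and KRT20 because it was raised by M1 medium and not called with IKK16. Capitals mark the matches. KRT10 (chr17:40822615-40822864, minus strand) has TATAAA at positions -29 to -24 from its start and a CCAAT box on the other strand at -143 to -139, and KRT20 (chr17:40885243-40885492, minus strand) has CCAAT at -79 to -75.
KRT10: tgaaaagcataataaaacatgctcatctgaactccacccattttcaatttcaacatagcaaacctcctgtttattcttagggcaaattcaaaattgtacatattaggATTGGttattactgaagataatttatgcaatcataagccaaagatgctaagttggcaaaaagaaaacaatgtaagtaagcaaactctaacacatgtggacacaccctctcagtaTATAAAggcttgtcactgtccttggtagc
KRT20: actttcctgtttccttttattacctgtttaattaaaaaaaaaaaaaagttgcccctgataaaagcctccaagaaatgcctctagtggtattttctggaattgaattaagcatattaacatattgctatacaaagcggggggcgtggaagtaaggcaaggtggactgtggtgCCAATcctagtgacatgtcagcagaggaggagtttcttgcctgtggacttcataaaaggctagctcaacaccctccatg

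Genes that work with keratins moved in both directions. Of 21 genes for desmosomes, hemidesmosomes and keratin-binding proteins, 20 were tested, and in M1 against control 10 were higher and 8 lower, where 32.7% of all genes were higher and 32.1% lower. COL17A1, SFN and ITGB4 rose most (log2 fold changes 2.38 ± 0.53, 1.59 ± 0.21 and 1.11 ± 0.11), and among the members reaching 1 CPM HRNR, PKP1 and ITGA6 fell most (-5.63 ± 0.59, -5.62 ± 0.49 and -1.01 ± 0.08). Of the genes of the hemidesmosome, which anchors basal keratins, COL17A1, ITGB4 and PLEC (0.51 ± 0.12) rose. ITGA6, the integrin partner of ITGB4, fell, while DST was not called (-0.35 ± 0.17). PKP1, a plakophilin of stratified desmosomes, averaged 2.87 CPM in control and 0.0550 CPM in M1. With IKK16 against DMSO, 6 of these 20 genes were lower and 0 higher, beside 13.2 and 13.9% of all genes.

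Of 15 other intermediate filament genes, 10 were tested, 2 rose and 5 fell in M1 against control, where 32.7% of all genes were higher and 32.1% lower. BFSP1, of the lens beaded filament, and the nuclear lamin gene LMNA rose (2.62 ± 0.25 and 0.41 ± 0.05), and PRPH, LMNB1 and NEFL fell most (-2.58 ± 0.24, -2.19 ± 0.07 and -0.94 ± 0.15). VIM, the mesenchymal intermediate filament, averaged 6.98 CPM in control and 7.96 CPM in M1 and was not called (edgeR adjusted p = 0.226). With IKK16 against DMSO, 1 of the 10 was higher (LMNB1, 0.58 ± 0.07) and 1 lower (LMNA, -0.21 ± 0.05), beside 13.9 and 13.2% of all genes.

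Of 16 epithelial transcription factors, 13 were tested, and 7 were higher and 2 lower in M1 against control, where 32.7% of all genes were higher and 32.1% lower. ELF3 averaged 34.9 CPM in control and 454.7 CPM in M1 (3.70 ± 0.06), KLF4 19.6 and 72.6 CPM (1.89 ± 0.07) and the hair keratin regulator HOXC13 10.2 and 24.6 CPM (1.28 ± 0.07). EHF (-0.49 ± 0.05) and TFAP2C (-0.38 ± 0.08) fell. TP63, the regulator of basal keratins, was at 0 in control and M2, had some counts in each other group and was not tested. With IKK16 against DMSO, 2 of the 13 were higher and 3 lower, beside 13.9 and 13.2% of all genes. ELF3 fell by 0.77 ± 0.05 and KLF4 was not called (0.02 ± 0.06). Of 14 cornified envelope genes, which are expressed with KRT1, KRT2 and KRT10 in epidermis, 7 were tested, 4 rose and 2 fell, beside the same 32.7 and 32.1% of all genes. TGM5, CDSN and CSTA rose most among those reaching 1 CPM (4.83 ± 0.67, 1.79 ± 0.28 and 0.70 ± 0.24), and CNFN and TGM1 fell (-0.64 ± 0.12 and -0.42 ± 0.18). LORICRIN, SPRR1B, SPRR2D, SPRR3 and RPTN were at 0 in control and in M1 alike. FLG and HRNR, also of cornifying epidermis, were counted above with the keratin-binding genes, and both fell in M1. FLG averaged 0.902 CPM in control and 0.0436 CPM in M1 (-4.25 ± 0.47).

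The labelled cell type was checked against its markers. All 10 LNCaP markers were detected in every group, and their summed level was 9204 to 9345 CPM in control and 2866 to 2895 CPM in M1. In M1 against control 8 of them were lower (32.1% of all genes), among them KLK2 and KLK3 (-5.16 ± 0.08 and -4.59 ± 0.07), and FOLH1 and STEAP2 were higher (32.7% of all genes). With IKK16 against DMSO, 7 were higher and 0 lower, beside 13.9 and 13.2% of all genes. Of 16 macrophage markers, 8 were tested in M1 against control, 4 rose and 3 fell, beside 32.7 and 32.1% of all genes. Among those reaching 1 CPM, ITGAM, LYZ and CD68 rose and ITGB2 and CSF1R fell. Their summed level was 231.3 to 233.7 CPM in control and 247.2 to 266.6 CPM in M1, most of it CSF1R, and PTPRC, TYROBP, MRC1 and CYBB were at 0 in M1. The part of either marker list in the keratin changes was not tested.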

How the data were processed

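The values are expected counts, deposited by the authors as 1 table of RefSeq transcripts, in steps of 0.5 and not normalized (unit read from the values). The submitters' processing notes name hg38, Trimmomatic, BWA 0.7.17 and HOMER 4.10; the counting rule, the use of strand and the handling of reads with several matches are not given in those sources. Of 70507 transcripts, 69830 were named from an NCBI gene table (GRCh38.p14) and 343 from GENCODE 29, and 334 without a name (0.0883 to 0.109% of counts) were left out. Each gene was represented by its transcript of highest total, and counts were rounded, with steps of 0.5 going up. Levels per kilobase used the spliced transcript length although counts followed spans, so they compare different genes only roughly.

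The test was edgeR's quasi-likelihood test (version 4.0.16, R 4.3.3) after filterByExpr (17073 genes kept) and TMM, with 1 mean for each group and all 18 libraries in the fit, two-sided, Benjamini-Hochberg adjusted p under 0.05 over all genes, in 8 comparisons. SE is of the log2 fold change, and ± beside a mean is the SD over 3 libraries. Sums and ratios used exact permutation tests. The scripts were tested on simulated data with 200 changed genes. Replicates differed beyond counting noise in all 18 pairs (chi-square per gene 2.65 to 20.5). Alternatives were DESeq2 1.42.0, its size factors, no filter, a filter of 1 CPM in 3 libraries, the 2 groups alone, a replicate block, the longest transcript, each library left out, and, added after seeing the data, the short KRT8 span.

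The members and gene lists were chosen with earlier results of these data known. Keratins that reached a group mean of 1 CPM are given by library, and of each list up to 3 called genes per direction with the largest M1 change that reach 1 CPM are named; others named were chosen after their values were seen. All 6 groups come from the labels. Coordinates are those of hg38. One gene that the naming rule takes from the LNCaP marker list is not reported here.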

Additional observations from a re-analysis of the deposited data

Results flagged for a closer look

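Among the keratin pseudogenes and antisense RNAs outside the keratin rule, 3 had more than 3 counts in every M1 library and more there than in any control library. The others were at or near 0 in both groups; KRT18P55, for one, had 6.5 counts over the control libraries and 2 over the M1 libraries. KRT7-AS, an antisense RNA inside KRT7, had 23.5 to 41.5 counts in the M1 libraries and 0 in the control libraries (edgeR adjusted p = 2.46e-08), and 72 counts over the 3 M1_IKK16 libraries against 116.5 with DMSO (not called, edgeR adjusted p = 0.197). KRT87P, a keratin pseudogene that overlaps KRT7, had 8 to 17.5 counts in M1 and at most 1 in control (edgeR adjusted p = 1.54e-05). KRT10-AS1, which overlaps KRT10, had 1390.5 to 1521 counts in M1 and at most 1043 in control. It rose by 0.54 ± 0.08 on the log2 scale (edgeR adjusted p = 1.29e-06) and was lower with IKK16 than with DMSO (-0.33 ± 0.08, edgeR adjusted p = 0.00225). Because reads of overlapping genes may be counted in both, these values and those of KRT7 and KRT10 are not independent.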

How the results depend on the processing

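Among the counts of called keratins, those in M1 against control, M0 and M2 and in M1_IKK16 against control stayed within 1.5 times the reported count under every alternative. With no filter, keratins higher in M0 against control became 1 (KRT10). With the 2 groups fitted alone, keratins higher in M2 against control became 0 and keratins lower in M1_DMSO against M1 became 2. Leaving out 1 library at a time gave 0 to 2 higher in M0 against control, 0 to 1 higher in M2 against control and 1 to 3 higher in M1_IKK16 against M1_DMSO. The summed keratin level in M1 over control was 1.24 to 1.29 over the libraries left out and 1.32 with the short KRT8 span; type I over type II, relative to control, was 0.749 with the long span, 0.740 to 0.755 over the libraries left out and 0.604 with the short span, whose counts hold no KRT18 reads.

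The replicate numbers did not pair the samples: of 45 same-number pairs of libraries, 2 had deviations correlated above 0.1 (r -0.148 to 0.154). With a replicate block, 11 keratins were higher and 2 lower in M1 against control, and 3 were higher and 5 lower in M1_IKK16 against M1_DMSO, KRT86 being the one no longer called; no other count changed. Depth limits the keratins under 3 counts per library, which cannot be told from 0.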
